A study of Mus musculus with 6 samples.

Results

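Vimentin, nestin, 2 galectins, 4 S100 proteins and 2 annexins make up the 10 genes described here (Vim, Nes, Lgals1, Lgals3, S100a4, S100a6, S100a10, S100a11, Anxa1 and Anxa2), out of 31053 genes listed in the files. They were picked by symbol, as genes whose levels had already been seen to differ between injured and sham tissue in these libraries, so their levels and ratios are descriptions and nothing below is a test of the choice. The question asked of them was whether a rise in infarcted tissue is shared by all cell classes. The data are single-cell RNA counts from mice of the genotype Tbx18CreER/+;Rosa26tdT/+, in which the Tbx18 promoter drives a tamoxifen-dependent Cre recombinase and recombined cells carry the red fluorescent protein tdTomato. All 6 libraries come from such mice, sham included, after intraperitoneal tamoxifen on 4 days and a washout of about a week, and all hold cells sorted for tdTomato. The heart sham library is from ventricles after sham surgery. The heart infarct and heart peri-infarct libraries were made after the left anterior descending (LAD) coronary artery was tied off, from the left ventricular infarct and from the tissue around it. The brain sham library is from cortex after sham surgery. The brain infarct and brain peri-infarct libraries are from the necrotic core of a photothrombotic stroke and from the tissue around it. Age, the time between injury and collection and the number of animals per library are not given in the sources used here.

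Each group is 1 library, so no comparison has replicates. A difference is given as a size with an interval that covers counting error only, and no p-value can be had. The 6 libraries were unequal. Heart sham had 17951 barcodes with a median of 1634 unique molecular identifiers (UMIs, each standing for 1 captured RNA molecule) per cell used, and heart infarct 9470 with a median of 10883. Brain medians were 3404 UMIs (sham), 26799 (infarct) and 3000.0 (peri-infarct). Between 24 and 204 cell barcodes were shared by a pair of libraries, the most by the peri-infarct libraries of heart and brain (7.88% of the smaller library), and no 2-fold ratio below changed sign when all shared barcodes were left out. Free RNA was also unequal: the estimated share of UMIs from outside the cell was 10.5% in heart sham and 1.13 to 5.06% in the other libraries. In heart sham the upper bound on this share was 38.5% in smooth muscle cells, 27.7% in pericytes and 50.7% in mesothelial cells, against at most 23.0% in any class of the other libraries. These bounds are read from collagen and fibroblast genes, whose transcripts the class may also make itself, so they are not levels of free RNA. Malat1, an abundant nuclear RNA, held 7.23% of UMIs in heart sham and 2.25% in heart infarct. In the brain it held 5.25% in sham and 0.743% in infarct. Values with free RNA subtracted or cells thinned to 1 depth stand beside many of the ratios they move, but not all.

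Cells were sorted into 6 classes by marker genes, none of which is among the 10: pericytes (Rgs5, Kcnj8, Abcc9 and others), smooth muscle (Myh11, Cnn1, Acta2 and others), fibroblasts (Dcn, Lum, Pdgfra and others), endothelium (Pecam1, Cdh5, Cldn5 and others), macrophages or microglia (Csf1r, C1qa, Tyrobp and others) and mesothelial or epicardial cells (Msln, Upk3b, Wt1 and others). The names mean pericyte-like, smooth-muscle-like and so on, from transcripts and not from lineage. Tbx18 itself, the gene that drives the Cre, stood at 130.3 CPM (counts per 1000000 UMIs of the class) in brain sham pericytes, 208 CPM in brain sham fibroblasts and 29.9 CPM in heart sham pericytes, but at 1.81 and 5.43 CPM in the endothelium of brain and heart sham. A class was compared where it had at least 50 cells in both libraries. That leaves 5 classes for heart infarct against sham (207 and 873 pericytes, 2469 and 522 smooth muscle cells, 4985 and 4737 fibroblasts, 178 and 179 endothelial cells, 64 and 96 mesothelial cells, in the order sham and infarct) and 3 for brain infarct against sham (1459 and 399 pericytes, 193 and 416 fibroblasts, 297 and 84 endothelial cells). Macrophages or microglia numbered 4 in heart sham and 37 in brain sham, and smooth muscle cells 3 in brain infarct, so whether these classes share the rise cannot be read from these data. Between 51.1% (brain infarct) and 85.8% (heart peri-infarct) of cells passed the gate. These shares include cells given to 5 further marker lists that form no class here (astrocyte, oligodendrocyte or Schwann, neuron, cardiomyocyte and lymphocyte). Of the 2028 brain infarct cells, 991 stayed outside every list, and 29.0% lay within 1 UMI of a limit of the gate.

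Vimentin and nestin are intermediate filament proteins. Vimentin forms the filament network of mesenchymal and endothelial cells, and nestin, which copolymerises with it, is known from progenitor cells, from newly forming vessels and from reactive tissue after injury. Galectins bind beta-galactoside sugars on glycoproteins; galectin-1 (Lgals1) is made by many mesenchymal cells and galectin-3 (Lgals3) is a familiar product of activated macrophages. S100 proteins are small calcium-binding proteins of the EF-hand kind, and annexins are calcium-dependent binders of membrane phospholipids; S100a10 and Anxa2 form a well-known complex at the plasma membrane, and S100a11 is a partner of Anxa1. The genes sit at few loci. In the mm10 assembly (GENCODE vM21), S100a4 (chr3:90603771-90606045) and S100a6 (chr3:90612882-90624181) are 6836 bases apart, S100a11 (chr3:93520488-93526287) and S100a10 (chr3:93555080-93564643) 28792 bases apart, and Nes (chr3:87971078-87980451) lies on the same chromosome, all on the plus strand. Vim is at chr2:13573927-13582826 (plus), Anxa2 at chr9:69453620-69491795 (plus), Lgals3 at chr14:47367751-47386160 (plus), Lgals1 at chr15:78926725-78930465 (plus) and Anxa1 at chr19:20373428-20390944 (minus).

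The promoters of 3 members are shown because these genes were higher in the infarct in several classes and their promoters hold short motifs a reader can find by eye. Each line gives the 250 bases before the annotated start of transcription, 5′ to 3′ on the strand of the gene, from RefSeq on GRCm38.p6 (the assembly that mm10 names); RefSeq and GENCODE place some starts differently. Capitals mark matches on either strand to a pair of motifs that do not overlap in these windows. The first is the site of AP-1, the Fos and Jun factors, spelled TGANTCA. The other is the core promoter box bound by the general factor TFIID, spelled TATAAA.
S100a11, chr3:93520246-93520495, plus strand: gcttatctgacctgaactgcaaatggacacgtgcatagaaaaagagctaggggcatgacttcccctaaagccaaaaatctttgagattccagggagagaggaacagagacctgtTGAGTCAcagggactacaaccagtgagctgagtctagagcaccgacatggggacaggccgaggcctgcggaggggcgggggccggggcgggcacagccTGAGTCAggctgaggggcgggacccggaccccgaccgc
Anxa2, chr9:69453433-69453682, plus strand: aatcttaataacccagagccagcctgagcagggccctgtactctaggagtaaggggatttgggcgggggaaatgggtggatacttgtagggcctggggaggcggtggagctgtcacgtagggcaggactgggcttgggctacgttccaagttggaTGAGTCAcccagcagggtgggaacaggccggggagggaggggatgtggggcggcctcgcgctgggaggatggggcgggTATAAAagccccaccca
Vim, chr2:13574061-13574310, plus strand: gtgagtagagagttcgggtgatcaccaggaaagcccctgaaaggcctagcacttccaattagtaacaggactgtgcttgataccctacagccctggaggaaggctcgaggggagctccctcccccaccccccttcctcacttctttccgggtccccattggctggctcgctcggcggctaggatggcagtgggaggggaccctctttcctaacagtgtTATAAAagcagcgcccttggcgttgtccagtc
The S100a11 window held 2 matches to TGANTCA and the Anxa2 window 1, and the windows of the other 6 members with a sequence held none. A match to TATAAA was found in Vim, S100a4, Anxa1 and Anxa2, 4 of the 8 members with a sequence. Over all 32851 promoters of the same length, 6.75% held TGANTCA and 12.4% held TATAAA. A match describes the letters and shows no binding.

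A rise of at least 2-fold in the infarct was not shared by all classes, while smaller positive ratios were more widespread. In the heart, 18 of 50 member-class pairs were at least 2-fold higher in infarct than in sham and 0 were at least 2-fold lower (with a mean of at least 50 CPM, which 43 of the 50 reached), where 7.03% of all gene-class pairs tested were higher and 8.09% lower. The 18 were uneven: 7 of 10 members in smooth muscle cells (8% of all genes tested in that class) and 7 in mesothelial cells (11.2%), but 2 in endothelium (4.27%), 1 in pericytes (4.86%) and 1 in fibroblasts (6.89%). In the brain, 14 of 30 pairs were higher in infarct than in sham and 0 lower (21 of the 30 reached 50 CPM), where 5.81% of all pairs were higher and 9.64% lower, and here the classes were closer together: 5 members in pericytes (4.03%), 4 in fibroblasts (10.5%) and 5 in endothelium (3.3%). At any size, 8 of 10 members had a positive ratio in heart pericytes, 10 in smooth muscle, 6 in fibroblasts, 9 in endothelium and 9 in mesothelial cells, with medians over the 10 members of 0.64, 1.69, 0.38, 0.61 and 1.54 on the log2 scale; the medians over all genes tested in these classes ran from -0.069 to 0.13. In each of the 3 brain classes 9 of 10 ratios were positive, with medians of 1.64 in pericytes, 0.57 in fibroblasts and 1.26 in endothelium, and from -0.17 to -0.075 over all genes. At a limit of 1.5-fold 27 heart pairs were higher and 1 lower (17.8% and 17.0% of all pairs tested), and 17 brain pairs higher and 1 lower (13.05% and 22.6%). Since the genes were chosen for this contrast, these shares are set side by side and nothing is read from them. Lgals1 was the only member at least 2-fold higher in all compared classes of both organs, and its endothelial value rests on few cells (below). The order of the classes also depends on where pericytes end and smooth muscle begins. With Acta2 and Tagln left out of the smooth muscle markers, a setting added after the data were seen, 370 sham and 1168 infarct cells of the heart counted as pericytes, and 5 members were higher in them (Lgals1, S100a6, S100a11, Anxa1 and Anxa2; 5.72% of all genes tested in that class), against 4 in the 986 and 151 smooth muscle cells (5.09%). With free RNA subtracted at its upper bound 4 members were higher in heart pericytes (6.35% of all genes tested) and 0 in heart fibroblasts (6.24%). For these classes the bound was over the library's own estimate in sham (27.7% and 33.1% against 10.5%). In infarct it was under that estimate (1.92% and 2.04% against 3.75%), so less was subtracted there than by the estimate. In heart endothelium 0 were higher when each cell weighed the same (4.11%) or was thinned (7.84%). With each cell weighing the same the number was 2 in brain endothelium (1.57%) and 3 in brain pericytes (2.46%). Of the 18 higher pairs in heart infarct 9 stayed so under all 18 alternative settings, and of the 14 in brain infarct also 9. Among these settings 3 (a filter at 20 CPM, no filter and a 1.5-fold limit) only loosen the call, so no called pair could be lost under them. A limit of 200 genes per cell was close to a copy of the main setting and left all 270 ratios within their main intervals. In the brain Vim and S100a6 were also higher in all 3 classes. The S100a6 value in brain pericytes stayed so in 14 of the 18 settings. Of the 30 member-class pairs measured in both organs, 3 were higher in both infarcts, and all 3 were Lgals1.

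**Figure D1:**
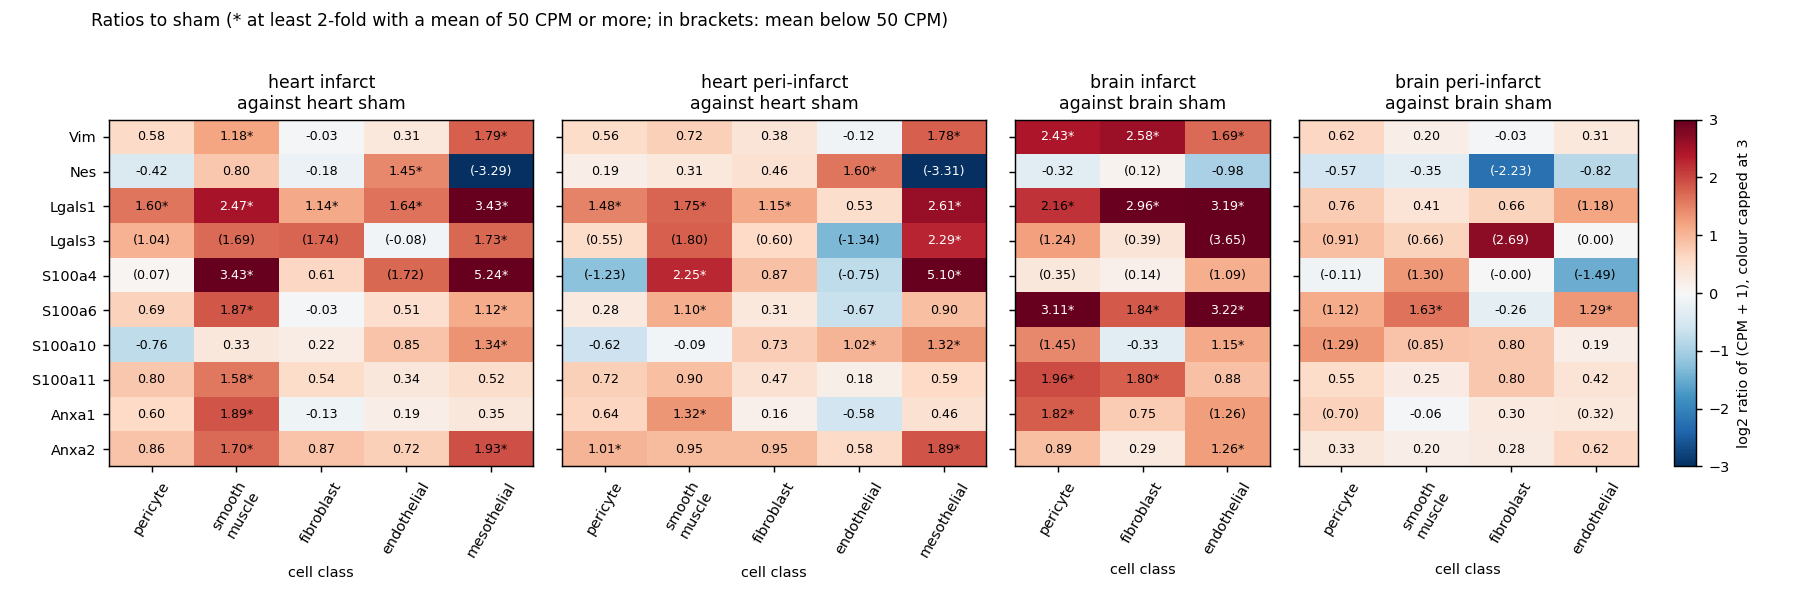
Log2 ratio of (CPM + 1) to sham for each member (rows) and cell class (columns) in the infarct and peri-infarct libraries of heart and brain; asterisks mark at least 2-fold with a mean of at least 50 CPM, and brackets a mean under 50 CPM. The heart smooth muscle and mesothelial columns each hold 7 asterisks in the infarct panel, while in the heart fibroblast column of that panel only Lgals1, at 1.14, has an asterisk. The median over the members in that column is 0.38.

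**Figure D2:**
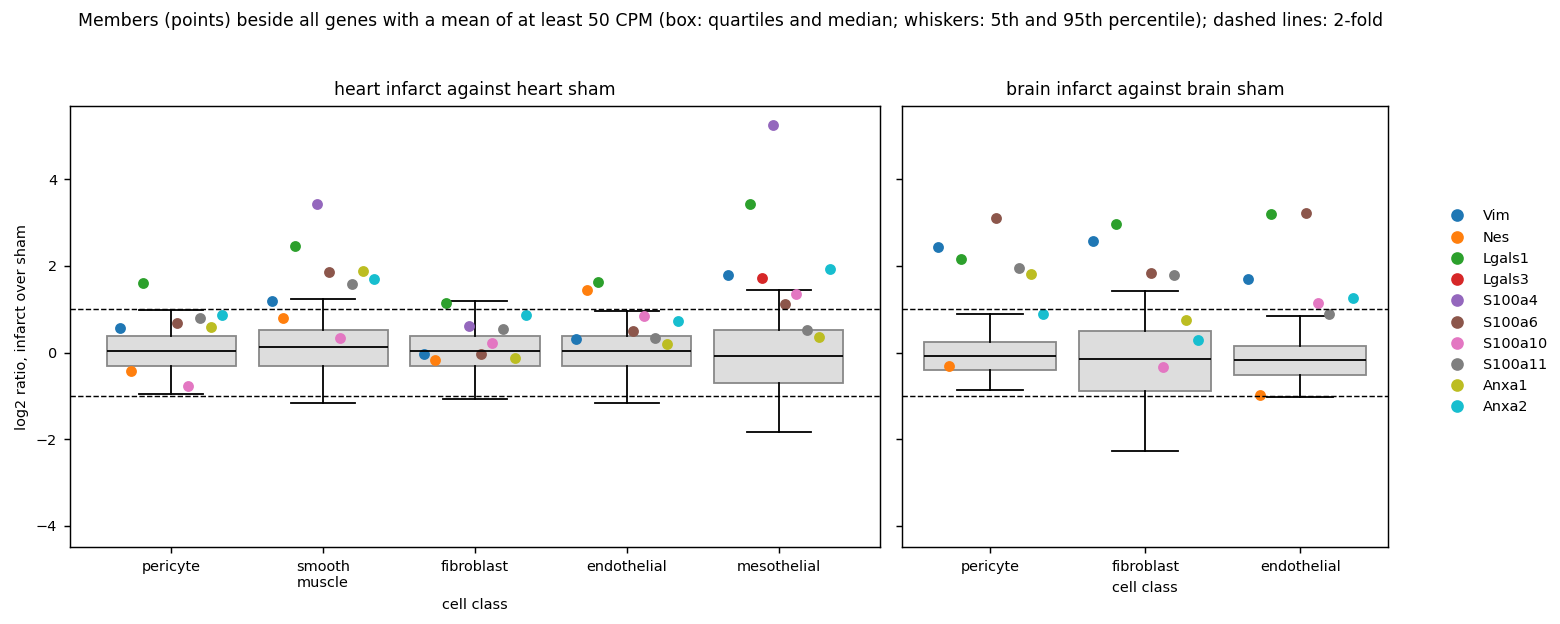
Log2 ratio of infarct over sham for each member with a mean of at least 50 CPM (coloured points) beside all genes tested in the class (box: quartiles and median; whiskers: 5th and 95th percentile); dashed lines are 2-fold. In heart fibroblasts all plotted members lie inside the whiskers (-1.07 to 1.18). In brain pericytes Vim (2.43), Lgals1 (2.16), S100a6 (3.11), S100a11 (1.96) and Anxa1 (1.82) lie above the upper whisker (0.88). Anxa2 lies just above it there, and Nes does not.

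Lgals1, galectin-1, was higher in more classes than any other member. Among heart pericytes it stood at 625 CPM in sham, 1902 CPM in infarct and 1746 CPM in peri-infarct. Heart fibroblasts held 1274 CPM in sham, 2809 CPM in infarct and 2823 CPM in peri-infarct, and heart smooth muscle cells 669 CPM in sham, 3704 CPM in infarct and 2258 CPM in peri-infarct. Both injured libraries were thus above sham in these 3 classes, with log2 ratios of infarct to sham of 1.60 (1.42 to 1.80) in pericytes (95% Poisson interval of the ratio in brackets, here and below), 1.14 (1.11 to 1.17) in fibroblasts and 2.47 (2.41 to 2.52) in smooth muscle. Mesothelial cells went from 481 CPM (390.5 to 586) in sham to 5193 CPM (5091 to 5297) in infarct and 2933 CPM (2857 to 3011) in peri-infarct. The brain had 212 CPM in sham, 949 CPM in infarct and 360.2 CPM in peri-infarct in pericytes and 509 CPM in sham, 3967 CPM in infarct and 807 CPM in peri-infarct in fibroblasts. There only the infarct library was at least 2-fold above sham, by 2.16 (2.05 to 2.28) and 2.96 (2.85 to 3.07) on the log2 scale, and the peri-infarct ratios were 0.76 and 0.66. After every cell was thinned to 1000 UMIs, the share of brain fibroblasts with a Lgals1 UMI was 42.5% (35.4 to 49.8) in sham and 88.5% (85.0 to 91.4) in infarct (exact Clopper-Pearson interval), and the share of heart pericytes 44.0% (37.1 to 51.0) and 72.2% (69.1 to 75.1). Before thinning the same shares were 83.4% and 99.8%, and 59.9% and 95.9%. The transcript was thus found in most thinned cells of both classes in the infarct. With free RNA subtracted at its upper bound, the ratio of heart fibroblasts was 0.98, just under 2-fold.

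Endothelium differed from the other classes in this respect. Its summed Lgals1 level in the heart was 109 CPM (86.1 to 135) for sham, 340.4 CPM (308 to 375) for infarct and 157 CPM (148 to 166) for peri-infarct. Brain values were 14.5 CPM (8.28 to 23.5) for sham, 141 CPM (112 to 174) for infarct and 34.0 CPM (23.1 to 48.3) for peri-infarct. The sums were at least 2-fold higher in both infarcts, but 5 cells held 46.1% of the class's Lgals1 UMIs in heart infarct and 89.4% in brain infarct. The share of thinned endothelial cells with a Lgals1 UMI was 19.7% (sham) and 13.4% (infarct) in the heart, and 1.68% (sham) and 2.38% (infarct) in the brain. When each cell weighed the same, the heart log2 ratio was -0.18 and the brain ratio 1.44, and with cells thinned to 1000 UMIs they were -0.34 and 0.48. Subtracting each library's free RNA gave -0.24 in the brain. That subtraction left no Lgals1 in the infarct class, so this value rests on the 1 CPM added to both levels. Without the cells of the highest UMI totals the heart ratio was 0.002. The heart values were thus under 2-fold in all 3 of these settings, and the brain value after thinning; the brain mean over cells was over 2-fold but under 50 CPM.

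**Figure D3:**
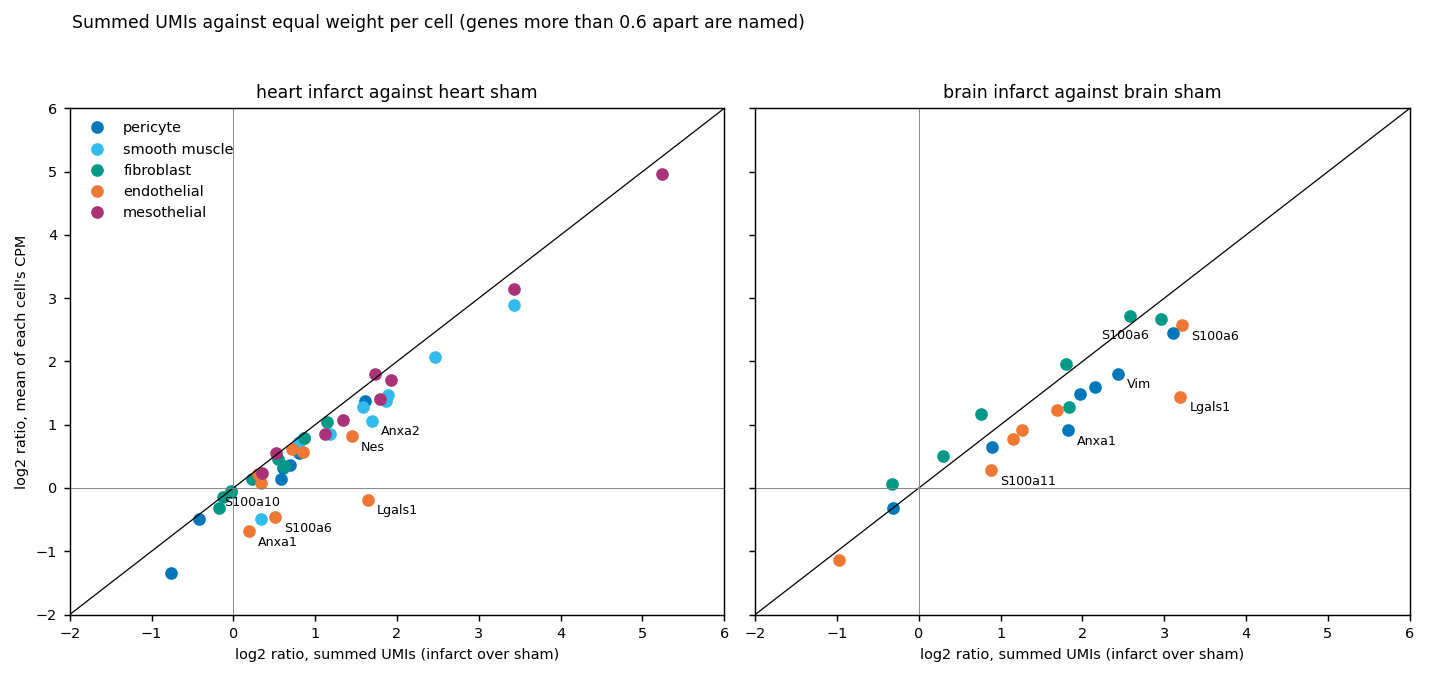
Log2 ratio of infarct over sham from UMIs summed over a class (horizontal) against the ratio of the mean of each cell's CPM (vertical), 1 point per member with a mean of at least 50 CPM and cell class; points on the line are equal in both. Endothelial Lgals1 lies farthest below the line in both organs, at 1.64 against -0.18 in the heart and 3.19 against 1.44 in the brain.

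Lgals3, galectin-3, was mostly a macrophage transcript. Macrophages held 2532 CPM (2468 to 2597) in heart infarct and 1733 CPM (1672 to 1795) in heart peri-infarct. In the brain the macrophage or microglia class held 2231 CPM (2172 to 2290.3) in infarct and 403 CPM (335 to 479) in peri-infarct, a log2 ratio of 2.47, with 131 and 50 cells; in peri-infarct 5 cells held 82.5% of these UMIs. Mesothelial cells came next, with 98.2 CPM in sham, 328 CPM in infarct and 484 CPM in peri-infarct (20, 619 and 932 UMIs), at least 2-fold higher in both injured libraries. The macrophage marker Lyz2 was at 6.37 and 2.60 CPM in those injured mesothelial cells, against 18456 CPM in heart infarct macrophages. In the remaining classes Lgals3 was scarce: the highest level in pericytes was 6.66 CPM, in endothelium 11.6 CPM and in smooth muscle 35.4 CPM, all under the 50 CPM needed for a comparison. Brain fibroblasts had 11.6 CPM in sham, 15.5 CPM in infarct and 80.2 CPM in peri-infarct, so in this class the peri-infarct library was the high one, with 5 cells holding 63.6% of its UMIs.

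Vim, vimentin, behaved differently in the compared classes of heart and brain; the difference between organs was not tested. Heart fibroblasts had 3549 CPM in sham, 3480.2 CPM in infarct and 4626 CPM in peri-infarct, and the infarct was even with sham at a log2 ratio of -0.028 (-0.045 to -0.012). Heart pericytes had 1496 CPM in sham, 2231 CPM in infarct and 2203 CPM in peri-infarct and heart endothelium 2922 CPM in sham, 3615 CPM in infarct and 2698 CPM in peri-infarct, both under 2-fold. In the heart Vim was at least 2-fold higher only in smooth muscle cells (1842 CPM in sham, 4186 CPM in infarct and 3024 CPM in peri-infarct; log2 1.18 (1.15 to 1.22) for infarct) and mesothelial cells (923 CPM in sham, 3196 CPM in infarct and 3179 CPM in peri-infarct; 1.79 (1.58 to 2.01)). Brain pericytes, in contrast, had 193 CPM in sham, 1047 CPM in infarct and 298 CPM in peri-infarct, brain fibroblasts 572 CPM in sham, 3414 CPM in infarct and 561 CPM in peri-infarct and brain endothelium 1306 CPM in sham, 4226 CPM in infarct and 1616 CPM in peri-infarct. The 3 brain classes were all higher in infarct than in sham, by 2.43 (2.32 to 2.56), 2.58 (2.48 to 2.68) and 1.69 (1.60 to 1.79), and none was 2-fold apart between peri-infarct and sham. All 18 alternative settings, 3 of which only loosen the call and could not lose one, kept these 3 brain values at 2-fold or more. In thinned cells the share with a Vim UMI went from 13.2% to 28.3% of brain pericytes, from 30.1% to 84.9% of brain fibroblasts and from 65.0% to 84.5% of brain endothelial cells, and in brain pericytes 5 of 399 cells held 34.1% of the UMIs. Heart fibroblasts started near the top of the range, with 91.7% of thinned sham cells and 92.5% of infarct cells positive, whereas brain sham fibroblasts had a Vim level of 572 CPM (532 to 613). Brain smooth muscle cells had 3597 CPM in sham and 4133 CPM in peri-infarct, and that sham level was close to the one of heart fibroblasts (3549 CPM). The heart smooth muscle ratio was 0.86 with each cell weighing the same and 0.86 after thinning, and the mesothelial one 0.97 without the highest UMI totals, all under 2-fold.

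Nes, nestin, followed another pattern. It was at least 2-fold higher in heart endothelium alone among the compared classes, with 132 CPM (107 to 161) for sham, 361 CPM (327 to 397) for infarct and 402 CPM (387 to 417) for peri-infarct, log2 ratios of 1.45 (1.13 to 1.79) and 1.60 (1.32 to 1.92). The share of thinned heart endothelial cells with a Nes UMI was 15.7% in sham against 26.8% (infarct) and 30.1% (peri-infarct). With each cell weighing the same the ratios were 0.82 and 0.95, and without the highest UMI totals 0.78 and 0.92, all positive and under 2-fold. After thinning the infarct ratio was 0.75. Brain endothelium had the opposite order, 298 CPM (266 to 332) for sham, 151 CPM (121 to 185) for infarct and 168 CPM (142 to 197) for peri-infarct, ratios of -0.98 (-1.33 to -0.64) and -0.82 (-1.11 to -0.54), short of 2-fold. Pericytes had 185, 138 and 211 CPM in heart sham, infarct and peri-infarct and 272, 218 and 183 CPM in the same order in the brain, with brain sham the highest of the 6. Heart smooth muscle cells had 103, 180.4 and 128 CPM, and heart fibroblasts 61.0, 53.8 and 84.4 CPM, all under 2-fold apart. In mesothelial cells Nes was scarce, with 6, 4 and 4 UMIs. Levels in brain fibroblasts were 36.2, 39.3 and 6.91 CPM in sham, infarct and peri-infarct, and in brain smooth muscle cells 120.4 CPM in sham and 94.4 CPM in peri-infarct. Macrophages held 23.4 CPM in heart infarct and 2.43 CPM in brain infarct.

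S100a6, calcyclin, was high in mesothelial cells and fibroblasts of the heart before injury: mesothelial cells had 2876 CPM in sham, 6238 CPM in infarct and 5382 CPM in peri-infarct and fibroblasts 2213 CPM in sham, 2168 CPM in infarct and 2753 CPM in peri-infarct. The fibroblast infarct was even with sham, at -0.029 (-0.05 to -0.0087), while smooth muscle cells had 839 CPM in sham, 3061 CPM in infarct and 1793 CPM in peri-infarct, a log2 ratio of 1.87 (1.82 to 1.92) for infarct. The smooth muscle peri-infarct ratio of 1.10 stayed a call in 11 of 18 settings, with a lowest value of 0.28. Thinning and cell means were among the settings that lost it. Heart pericytes had 1004, 1616 and 1221 CPM and heart endothelium 608, 866 and 381 CPM in sham, infarct and peri-infarct, none 2-fold apart from sham. The brain was different again. Brain fibroblasts had 816 CPM in sham, 2919 CPM in infarct and 681 CPM in peri-infarct, a log2 ratio of 1.84 (1.75 to 1.93) for infarct, and the peri-infarct level lay under sham. Brain pericytes had 19.0 CPM in sham, 172 CPM in infarct and 42.7 CPM in peri-infarct and brain endothelium 44.3 CPM in sham, 421 CPM in infarct and 109.8 CPM in peri-infarct, with infarct ratios of 3.11 (2.82 to 3.53) and 3.22 (2.80 to 3.72). The share of pericytes with an S100a6 UMI was 2.12% in sham and 16.8% in infarct, or 1.37% and 6.27% in thinned cells, and that of endothelial cells 3.70% and 28.6%, or 1.68% and 10.7% in thinned cells; a cell without a UMI may still hold the transcript. In the infarct libraries 5 cells held 68.5% of the pericyte UMIs and 90.9% of the endothelial ones. After thinning the ratios were 2.64 and 1.68. The pericyte value stayed a call in 14 of 18 settings, and its lowest ratio over them was 1.95. With cell means, the stricter gate or free RNA subtracted in either way, its mean level was under 50 CPM. Between brain infarct and peri-infarct the pericyte ratio of 1.98 was 0.45 with free RNA subtracted. The mesothelial infarct ratio of 1.12 (0.997 to 1.24) was 0.85 with each cell weighing the same and 0.87 with at most 5% mitochondrial UMIs, under 2-fold. The peri-infarct endothelial value, at least 2-fold above sham, also rests on 5 cells with 82.0% of UMIs, and with thinned cells its ratio was -0.0095. Brain smooth muscle cells had 90.6 CPM (73.2 to 111) in sham and 283 CPM (239 to 333) in peri-infarct, 1 of the 2 member-class pairs that were higher in brain peri-infarct. Without shared barcodes the smooth muscle ratio was 1.58 and the endothelial one 0.06.

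S100a4, known as a fibroblast and metastasis-linked S100 protein, was low in most classes and was higher in smooth muscle and mesothelial cells of the heart. Smooth muscle cells had 21.6 CPM (17.7 to 26.2) for sham, 243 CPM (229 to 257) for infarct and 107 CPM (95.9 to 119) for peri-infarct, and the infarct exceeded sham by 3.43 (3.20 to 3.79) on the log2 scale. Mesothelial cells had 3 sham UMIs, 1121 infarct UMIs and 1039 peri-infarct UMIs, or 14.7, 595 and 540.0 CPM; with so few sham UMIs the infarct ratio of 5.24 has a wide interval, 5.24 (3.79 to 7.62). Among thinned mesothelial cells 27.1% had an S100a4 UMI in infarct, and before thinning 4.69% in sham and 78.1% in infarct. The unthinned shares are at unequal depth, with medians of 2197 UMIs per cell in sham and 17192.5 in infarct. Heart fibroblasts, the class the gene is often used to mark, had 54.3, 83.6 and 100.5 CPM, under 2-fold, and 5.995% of thinned infarct fibroblasts had a UMI. Heart macrophages had 282 CPM in infarct and 184 CPM in peri-infarct. Heart pericytes had 29.9, 31.3 and 12.2 CPM and heart endothelium 16.3, 56.0 and 9.27 CPM; in the endothelial infarct 5 cells held 89.4% of the 66 UMIs. In the brain the gene was near the limit of detection, with 4, 2 and 2 UMIs in pericytes of sham, infarct and peri-infarct and 10.1, 11.3 and 10.1 CPM in fibroblasts, and 145 and 144 CPM in macrophages or microglia of infarct and peri-infarct.

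S100a10, the partner of Anxa2, was the member with a negative infarct ratio in heart pericytes beside Nes. Heart pericytes had 280.1 CPM (229 to 339.7) for sham, 165 CPM (152 to 178) for infarct and 182 CPM (168 to 197) for peri-infarct, so both injured libraries lay under sham, at log2 ratios of -0.76 (-1.07 to -0.45) and -0.62 (-0.92 to -0.31). Thinned cells showed a wider gap: 24.2% of heart pericytes had a UMI in sham, 9.85% in infarct and 9.84% around it, and the infarct ratio was -1.54 after thinning and -1.34 with each cell weighing the same, both past 2-fold lower. In these heart sham pericytes the fibroblast markers summed to 7577 CPM, against 1400.3 CPM in infarct and 1171 CPM in peri-infarct, and heart sham fibroblasts held 693 CPM of S100a10. With free RNA subtracted at its upper bound the infarct ratio was -0.28, and the part of fibroblast RNA in it was not tested further. Heart smooth muscle cells had 246, 310.2 and 232 CPM, and heart fibroblasts 693, 809 and 1147 CPM. The higher classes were mesothelial cells (952 CPM in sham, 2415 CPM in infarct and 2381 CPM in peri-infarct; infarct 1.34 (1.14 to 1.56)) and endothelium (402 CPM in sham, 723 CPM in infarct and 814 CPM in peri-infarct; infarct 0.85 (0.66 to 1.04), peri-infarct 1.02 (0.85 to 1.19)), of which the endothelial infarct is under 2-fold. Brain fibroblasts had 580.3 CPM in sham, 461 CPM in infarct and 1009.5 CPM in peri-infarct, with infarct the lowest of the 3, and infarct against peri-infarct at -1.13 (-1.21 to -1.05) was, among pairs with a mean of at least 50 CPM and under the main settings, the only one at least 2-fold lower in any of the 6 comparisons; it was -0.89 with TMM scaling, -0.69 with each cell weighing the same and -0.39 after thinning. Brain pericytes held 6.69, 20.04 and 17.8 CPM, under the limit for a comparison, and brain endothelium 61.5, 137 and 70.3 CPM, where the infarct ratio of 1.15 was 0.16 after thinning and 5 cells held 68.7% of the infarct UMIs.

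S100a11, whose promoter holds the pair of TGANTCA matches, was higher in the infarct in heart smooth muscle cells and in the pericytes and fibroblasts of the brain. Heart smooth muscle cells had 451 CPM in sham, 1349 CPM in infarct and 841 CPM in peri-infarct, a log2 ratio of 1.58 (1.51 to 1.65) for infarct. Brain pericytes had 171 CPM in sham, 668 CPM in infarct and 249.7 CPM in peri-infarct and brain fibroblasts 417 CPM in sham, 1453 CPM in infarct and 725 CPM in peri-infarct, ratios of 1.96 (1.84 to 2.11) and 1.80 (1.68 to 1.92). The infarct stood out in these 3 classes, and the share of thinned brain pericytes with a UMI went from 14.5% to 29.6%. The ratios in the other classes were positive but under 2-fold, from 0.34 in heart endothelium to 0.88 in brain endothelium, with levels of 489.8, 619.6 and 556 CPM in heart endothelium, 571, 993 and 939.8 CPM in heart pericytes, 765, 1114 and 1058 CPM in heart fibroblasts, 1079.8, 1550.1 and 1623 CPM in mesothelial cells and 175, 323 and 234 CPM in brain endothelium. Lgals1, S100a11 and Anxa2 were the members that passed the 50 CPM filter with a positive infarct ratio in every compared class of both organs.

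Anxa1, annexin A1, an anti-inflammatory mediator, had a narrow response. It was at least 2-fold higher in the infarct in heart smooth muscle cells (149.9 CPM in sham, 557 CPM in infarct and 375 CPM in peri-infarct; 1.89 (1.77 to 2.01)) and in brain pericytes (30.1 CPM in sham, 109 CPM in infarct and 49.7 CPM in peri-infarct; 1.82 (1.52 to 2.19)). In brain pericytes 5 cells held 52.1% of the infarct UMIs, and the ratio was 0.91 with each cell weighing the same, under 2-fold, and 1.39 after thinning, where the level was under 50 CPM. Heart fibroblasts had 340.3, 311 and 379 CPM in sham, infarct and peri-infarct, mesothelial cells 432, 550.3 and 593 CPM and heart pericytes 174, 265 and 271 CPM, all under 2-fold from sham. Heart endothelium had 69.2, 78.9 and 46.1 CPM, so its peri-infarct level was under sham, at a log2 ratio of -0.58 (-1.02 to -0.13). Brain fibroblasts had 333, 562 and 410.2 CPM in sham, infarct and peri-infarct, with the infarct highest but under 2-fold, although the thinned share went from 16.1% to 38.5%. Brain endothelium had 27.2, 66.2 and 34.0 CPM, under the limit for a comparison. Anxa2, annexin A2, a membrane organiser and plasmin receptor subunit, was higher in heart smooth muscle cells (159 CPM in sham, 517 CPM in infarct and 307 CPM in peri-infarct; 1.70 (1.59 to 1.82)), in mesothelial cells (496 CPM in sham, 1889.8 CPM in infarct and 1846 CPM in peri-infarct; 1.93 (1.65 to 2.23)) and in brain endothelium (164 CPM in sham, 392 CPM in infarct and 253 CPM in peri-infarct; 1.26 (0.98 to 1.55)). Heart fibroblasts (415, 758 and 800.4 CPM) and heart pericytes (182, 332 and 368 CPM) had infarct ratios of 0.87 and 0.86, close to the limit but under it, and heart endothelium (361, 594 and 538 CPM) 0.72. Brain pericytes had 125, 233 and 158 CPM and brain fibroblasts 653, 799.7 and 793 CPM, under 2-fold from sham in both. In the brain endothelial infarct 5 of 84 cells held 48.5% of the Anxa2 UMIs, and with each cell weighing the same its ratio was 0.92.

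**Figure D4:**
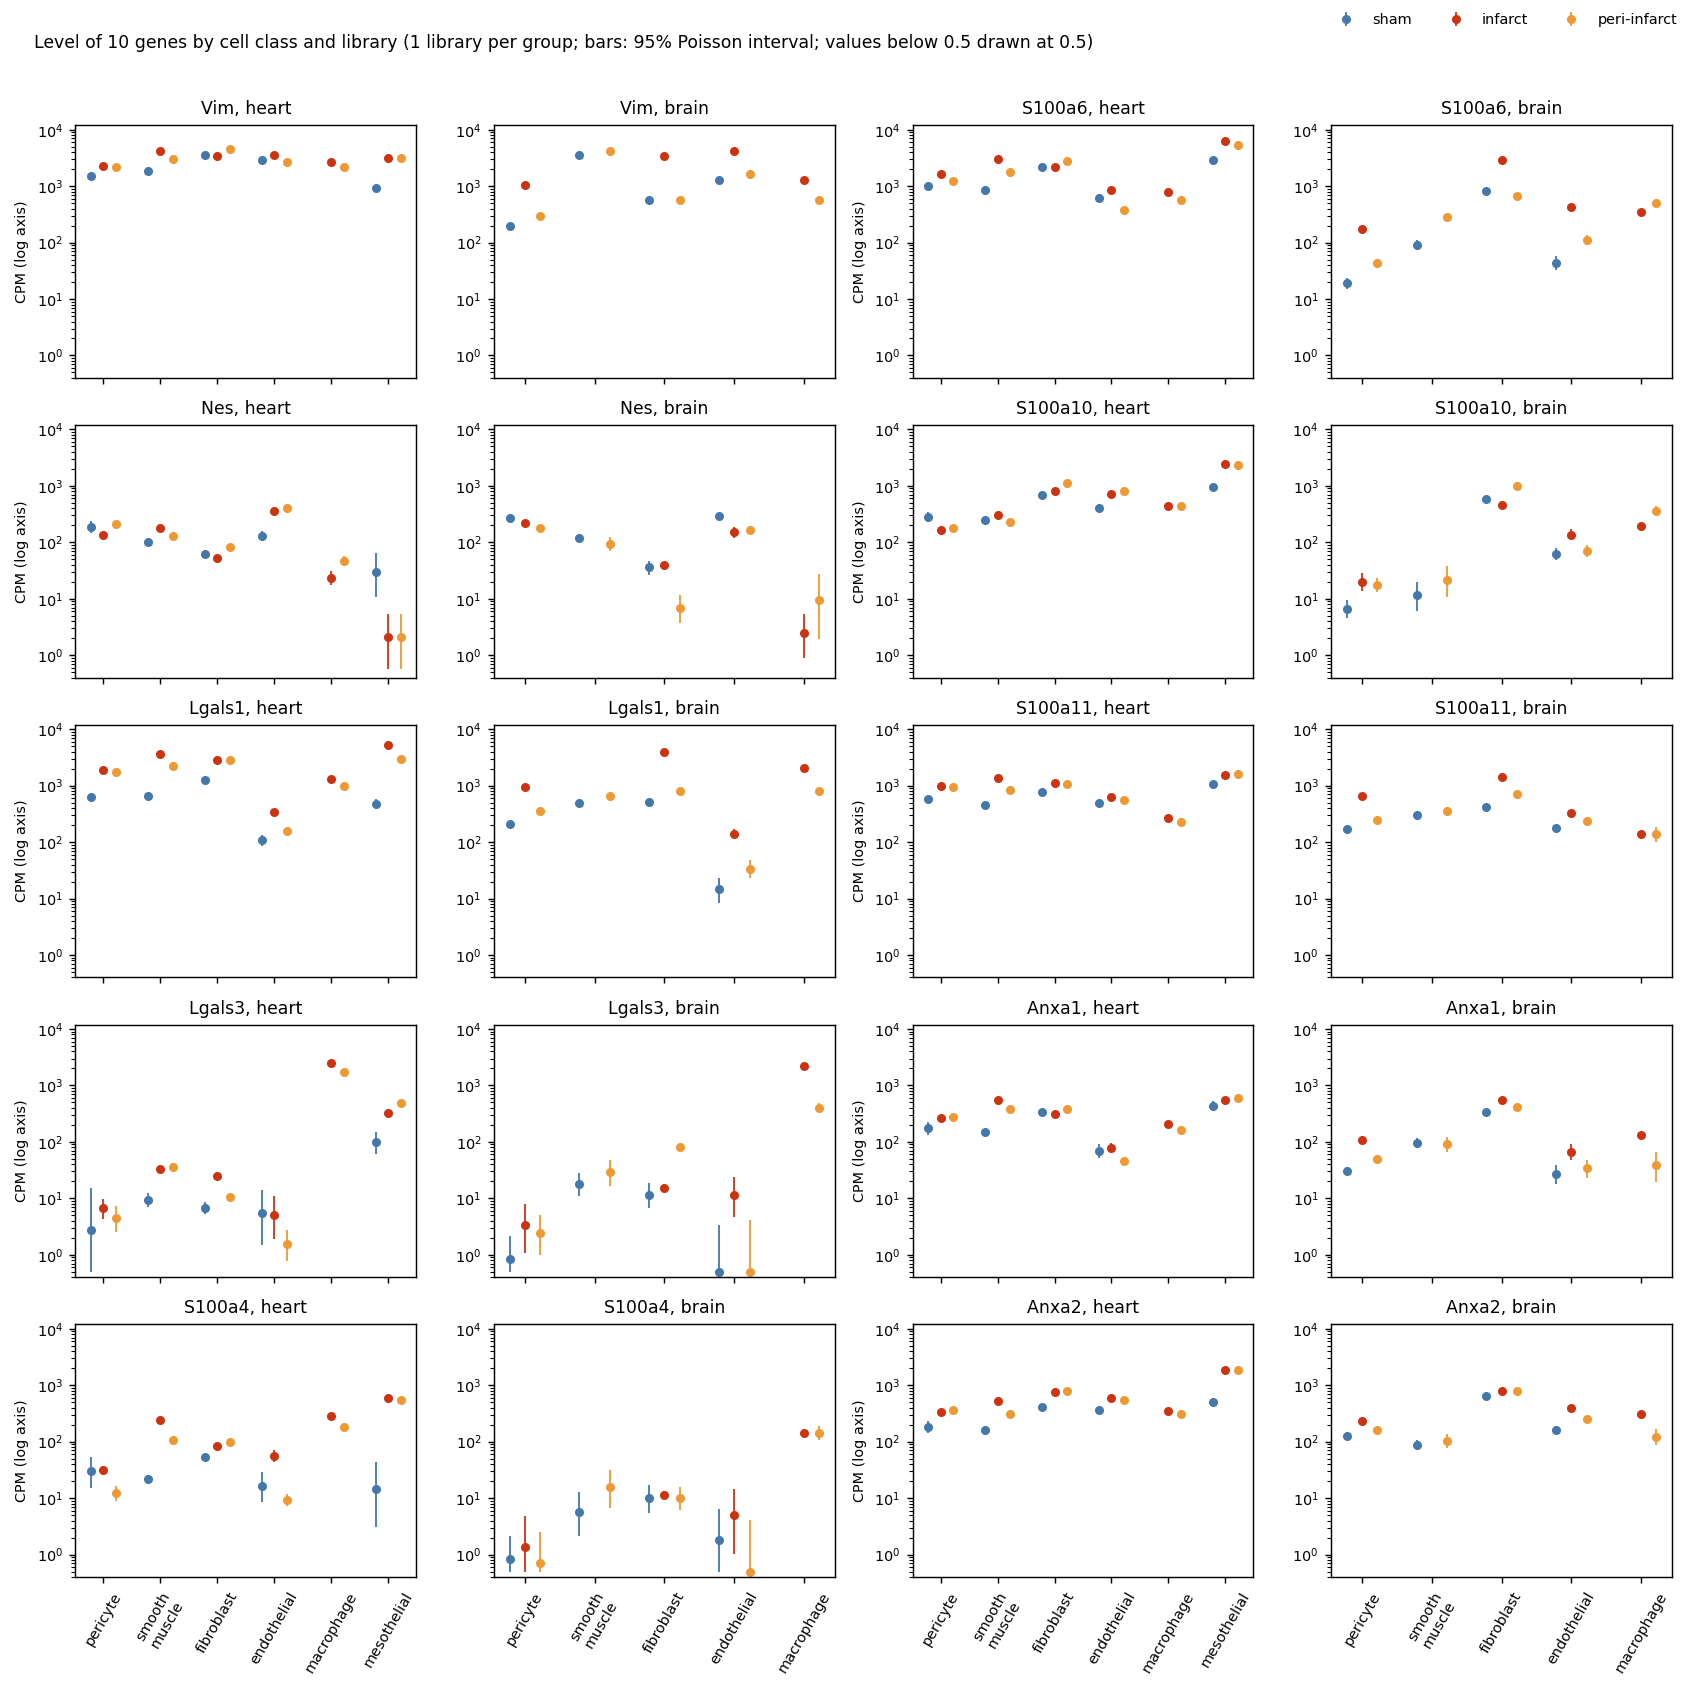
Level of each member in CPM (vertical, log axis; values under 0.5 CPM drawn at 0.5) by cell class and library; blue is sham, red infarct and orange peri-infarct, each point is 1 library's sum over a class and bars are 95% Poisson intervals. Vim lies between 3480.2 and 4626 CPM in the heart fibroblast libraries, while in brain fibroblasts the infarct point, at 3414 CPM, is above sham and peri-infarct.

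The smooth muscle class of the heart, which carries 7 of the 18 higher pairs, differed between libraries in more than these genes. Its Col1a1 level was 322 CPM in sham, 1966 CPM in infarct and 676 CPM in peri-infarct, and that of Myh11, the smooth muscle myosin, 4142, 2278 and 3515 CPM. The fibroblast markers of the gate went the other way from Col1a1: their 9 genes summed to 10135 CPM in sham, 2238 CPM in infarct and 2061 CPM in peri-infarct, and Dcn, a fibroblast proteoglycan, stood at 2988, 837 and 489.9 CPM. The part of fibroblast RNA in these ratios was not tested beyond the subtraction of free RNA. The markers Acta2 and Tagln are also made by fibroblasts that have become contractile. When both were left out of the gate, 986 sham and 151 infarct cells remained, and the infarct ratios of Vim (0.95), Anxa1 (0.81) and Anxa2 (0.68) were under 2-fold, while Lgals1 (1.91), S100a4 (3.77), S100a6 (1.498) and S100a11 (1.13) stayed at 2-fold or more. With free RNA subtracted at the upper bound, the ratio was 1.77 for Vim and 4.72 for S100a4. In heart sham mesothelial cells the median cell had 10 UMIs of the fibroblast markers per 1000 against 8.5 of the mesothelial markers, and in infarct the medians were 4 and 7; the part of fibroblast RNA in the mesothelial ratios was not tested. Without the highest UMI totals the members higher in mesothelial infarct cells numbered 4 (12.5% of all genes tested).

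In the tissue around the infarct most of the higher pairs were in the heart. Heart peri-infarct had 15 of 50 pairs higher than sham and 0 lower (5.17% and 6.53% of all pairs tested), with 4 in smooth muscle (3.16% of all genes tested there), 6 in mesothelial cells (10.3%), 2 in pericytes (3.92%), 2 in endothelium (5.1%) and 1 in fibroblasts (3.08%). They were Lgals1, S100a4, S100a6 and Anxa1 in smooth muscle, Vim, Lgals1, Lgals3, S100a4, S100a10 and Anxa2 in mesothelial cells, Lgals1 and Anxa2 in pericytes, Nes and S100a10 in endothelium and Lgals1 in fibroblasts. Under all 18 alternative settings, 3 of which only loosen the call and could not lose one, 6 of the 15 stayed higher. This comparison shares its sham library with the infarct one. Brain peri-infarct had 2 of 40 pairs higher and 0 lower (0.725% and 2.65%), both of S100a6. Directly between the injured libraries, 3 of 60 pairs were higher in heart infarct than in heart peri-infarct and 0 lower (1.01% and 0.844%): S100a4 in smooth muscle (1.18), and Lgals1 (1.11) and S100a6 (1.18) in endothelium. Only S100a4 stayed higher under all 18 settings. Endothelial Lgals1 did so in 10 of them and S100a6 in 14, with lowest ratios of 0.47 and 0.52. In the brain 17 of 40 pairs were higher in infarct than in peri-infarct and 1 lower (4.46% and 6.85%). They included Vim in all 4 classes (log2 1.81 in pericytes, 2.60 in fibroblasts, 1.39 in endothelium and 1.18 in macrophages or microglia) and Lgals1 in all 4 (1.40, 2.30, 2.02 and 1.38). Macrophages or microglia, which have too few sham cells to compare, also had more Anxa1 (1.79) and Anxa2 (1.31) in brain infarct, from 12 and 38 peri-infarct UMIs, and their S100a6 (-0.56) and S100a10 (-0.89) ratios were negative. This brain class pools both cell types, with Lyz2 at 34197 CPM in infarct and 10272 CPM in peri-infarct, and Rgs5 at 10.5 and 217 CPM. The part of a different mix of cells in the ratios of this class was not tested. Of the 18 pairs 11 stayed past 2-fold under all 18 settings. In heart macrophages all 10 members were under 2-fold apart between infarct and peri-infarct.

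Relatives and partners of the 10 genes were followed as 5 lists of 50 genes (49 in the files): other S100 genes, other annexins, other galectins, other intermediate filament genes and linkers, and partners and receptors. Across the heart classes 11 of 88 tested gene-class pairs were higher in infarct than in sham and 7 lower, or 12.5% and 7.95%, beside 7.03% and 8.09% of all pairs tested. Across the brain classes 3 of 46 were higher and 4 lower, or 6.52% and 8.70%, close to the 5.81% and 9.64% of all pairs. In heart smooth muscle cells Anxa3 (320 CPM against 113) and Anxa6 (172 against 59.9) were higher and the filament gene Synm lower. Heart mesothelial cells held most of the rest: Lgals7 (1969 CPM in infarct against 157 in sham, from 3711 and 32 UMIs), Anxa8 (244 against 39.3), S100a13, Anxa6, the lamin gene Lmna, the linker gene Plec and the hyaluronan receptor gene Cd44 were higher, and Lgals2, Des, Synm and Ahnak lower. In heart fibroblasts Lgals3bp, the galectin-3 binding protein, was higher (79.4 against 27.9 CPM), and the desmin gene Des lower (17.6 against 104). Des, a muscle filament gene, went with the mural markers found in that class: the smooth muscle list summed to 3594 CPM in sham fibroblasts and 715 CPM in infarct fibroblasts, with Myh11 at 613 and 3.11 CPM and Rgs5 at 1038 and 47.9 CPM. The upper bound on free RNA in the sham class was 33.1%, but for fibroblasts that bound is itself read from Myh11, Acta2, Tagln and Rgs5. The part of mural and free RNA in the Des value was not tested. Heart endothelium had more Dysf and less Plat, the tissue plasminogen activator. Among brain pericytes Lgals3bp (87.5 against 18.4 CPM), Des (243 against 99.4) and Plec (76.1 against 24.5) were higher, and among brain fibroblasts S100a1, S100b, Anxa7 and Ahnak were lower; Ahnak, a large partner of the S100a10 and Anxa2 complex, went from 517 to 164 CPM. In heart macrophages the neutrophil-type genes S100a8 (16.6 against 121 CPM) and S100a9 (21.7 against 198) were lower in infarct than in peri-infarct, 2 of 103 pairs tested or 1.94% beside 0.844% of all pairs, while 0 of 60 tested list pairs were at least 2-fold apart between brain peri-infarct and sham (0.725% higher and 2.65% lower over all pairs). Heart peri-infarct against sham had 9 higher and 4 lower of 86, or 10.5% and 4.65%, beside 5.17% and 6.53% of all pairs: Anxa3 and Anxa6 in smooth muscle, Dysf in endothelium and S100a13, Anxa8, Lgals7, Lmna, Plec and Cd44 in mesothelial cells were higher, and Des in fibroblasts and Des, Synm and Ahnak in mesothelial cells lower. Brain infarct against peri-infarct had 4 higher and 3 lower of 58, or 6.90% and 5.17%, beside 4.46% and 6.85% of all pairs, with Lgals3bp, Des and Plec higher in pericytes and Anxa4 in macrophages or microglia, and S100a1, S100b and Ahnak lower in fibroblasts.

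Across the 30 sums of a class in a library with at least 50 cells, the levels of the members moved in loose groups (Pearson correlation of log2(CPM + 10), given as a description; sums of 1 library share its depth and free RNA). S100a6 went with Anxa1 (r = 0.87), S100a10 with Anxa2 (0.84) and with S100a6 (0.83), and Lgals1 with Anxa1 (0.82), whereas Nes ran against Lgals3 (-0.78) and S100a4 (-0.60). Of the other genes averaging 50 CPM or more, the pattern of Vim was most like that of Plec (0.84), that of Nes like Itga1 (0.93), that of Lgals1 like Emp3 (0.86), that of Lgals3 like Fyb (0.92), and that of S100a4 like Metrnl (0.81). S100a6 was most like Igfbp4 (0.87), S100a10 like Ptp4a2 (0.92), S100a11 like Bmp1 (0.93), Anxa1 like Col3a1 (0.89) and Anxa2 like Yif1a (0.88).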

How the data were processed

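The 6 libraries (3′ 10x version 3) were deposited as matrices of UMI counts. Per the file headers the counting was done with Cell Ranger 3.0.2, and the submitters' processing notes list mm10 and Seurat 3. Counts were used as deposited. The members and lists were chosen with earlier results of these data known; family and partner genes are named where at least 2-fold apart, and the gene outside the list most correlated with each member is named. Cells had at least 500 genes, at most 10% mitochondrial UMIs and at least 1000 UMIs, which left out 3129 cells of heart sham and 32 to 50 elsewhere, and kept 2028 to 10501. The gate read each cell thinned to 1000 UMIs (seed 1): a class needed 4 UMIs of its markers above the 25th percentile of the library, 2 times the excess of any other list and 3 markers detected, a rule set after the data were seen. This dominance rule was the only treatment of doublets; an alternative left out the highest UMI totals (0.8% per 1000 barcodes). Counts were summed per library and class and scaled to CPM; a gene was compared at a mean of at least 50 CPM and called at 2-fold in (CPM + 1). Intervals, exact Poisson for levels and Clopper-Pearson for shares (95%, scipy 1.17.1), cover counting error alone. The free RNA share of a library was estimated from 6 collagen and fibroblast genes outside the gate, read in endothelial cells. The upper bound was set per class from the lowest ratio of class to library level among these genes. For fibroblasts it was read from Myh11, Acta2, Tagln and Rgs5, which are gate markers. In several classes this bound lay under the library share. Where subtraction took more than the level held, the level was counted as absent. The 15 alternatives fixed at the start and 3 added later are in the closing section (edgeR 4.0.16 gave TMM factors, R 4.3.3). Calls and intervals were also run on Poisson counts simulated from the sham profiles of heart pericytes, fibroblasts and endothelium. The intervals assume the same law, so their coverage there (94.2 to 96.0%) was fixed in advance. It says nothing about sums in which a few cells hold most UMIs. Gene positions are from GENCODE vM21. Genes overlapping a member and listed in the files are Gm42674 (S100a4, same strand), Gm16144 (Anxa2, other strand) and 1500015L24Rik (Anxa1, other strand). The S100a4 level may therefore miss reads. Promoters came from RefSeq; 8 of the 10 members matched by symbol.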

Additional observations from a re-analysis of the deposited data

Results flagged for a closer look

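In 5 cases a member moved in opposite directions in heart and brain cells of the same class, by at least 1.5-fold each way and with counting intervals that exclude 0; with 1 library per group, the difference between the organs was not tested. Nes in endothelium had a log2 ratio of infarct to sham of 1.45 in the heart and -0.98 in the brain, and of peri-infarct to sham of 1.60 and -0.82. S100a10 in pericytes had -0.76 in heart infarct and 1.45 in brain infarct, and -0.62 and 1.29 in the peri-infarct libraries, but the brain levels (6.69, 20.04 and 17.8 CPM in sham, infarct and peri-infarct) are under the 50 CPM used for comparisons. S100a6 in endothelium had -0.67 in heart peri-infarct and 1.29 in brain peri-infarct, where 5 cells held 82.0% of its UMIs.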

How the results depend on the processing

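No paired analysis was possible because each group has 1 library, and for the same reason no replicate could be left out. Infarct counts were the steadiest: the numbers of higher pairs in heart infarct against sham (18), brain infarct against sham (14) and brain infarct against peri-infarct (17) stayed within 1.5 times under all 18 alternatives. Heart peri-infarct against sham (15 higher) gave 9 with the mean of each cell's CPM and 25 at a 1.5-fold limit. Brain peri-infarct against sham (2) gave 6 with at most 5% mitochondrial UMIs, 4 with TMM factors, 5 with a filter at 20 CPM, 7 without a filter, 8 at 1.5-fold, and 1 with cell means, without the highest UMI totals or without shared barcodes. Heart infarct against peri-infarct (3) gave 9 with up to 20% mitochondrial UMIs, 5 at 20 CPM, 7 without a filter, 10 at 1.5-fold, 1 with the stricter gate and 6 with a gate on all UMIs. Lower pairs, 0 in 5 comparisons, became 1 to 3 under some settings: heart infarct against sham 1 (cell means, thinned, no filter, 1.5-fold, highest UMI totals left out, gate on all UMIs); heart peri-infarct against sham 3 (cell means, thinned, no filter, highest totals left out), 2 (1.5-fold) or 1 (20 CPM, gate without Acta2 and Tagln); brain infarct against sham 1 (20% mitochondrial, cell means, thinned, 1.5-fold, highest totals left out, stricter gate, without shared barcodes); brain peri-infarct against sham 2 (no filter) or 1 (thinned, 20 CPM, 1.5-fold, gate without Acta2 and Tagln); heart infarct against peri-infarct 2 (1.5-fold). In single classes the number of higher members moved more than these totals did, as given beside them. The 1 lower pair of brain infarct against peri-infarct became 0 (TMM, cell means, thinned, highest totals or shared barcodes left out), 2 (5% mitochondrial, 20 CPM, 1.5-fold, free RNA subtracted, stricter gate) or 3 (no filter, gate on all UMIs). Among the pairs called higher or lower, signs turned for endothelial values: Lgals1 in heart infarct against sham (-0.18 with cell means, -0.34 thinned), Lgals1 in brain infarct against sham (-0.24 with free RNA subtracted, -3.47 at its upper bound) and against peri-infarct (-0.088 thinned, -3.27 and -4.68 with free RNA subtracted), and S100a6 in brain peri-infarct against sham (-0.0095 thinned); the cause was not tested. Where free RNA was subtracted, no infarct Lgals1 was left in brain endothelium, so those negative values rest on the 1 CPM added to both levels. Over all 270 pairs, uncalled ones included, 227 kept their sign when thinned, 240 with at most 5% mitochondrial UMIs, 246 with cell means and 250 to 270 in the other settings. TMM factors moved the median of all genes by over 0.1 in 13 of 27 class comparisons, most in brain fibroblasts of infarct against sham (0.53), heart mesothelial cells (0.35) and brain macrophages (0.44). Depth limits the sham mesothelial and brain endothelial values, which rest on 64 and 84 cells.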

Other observations

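The 991 brain infarct cells that fell in no class carried the highest levels of several members in that organ, with 4369 CPM of Vim, 5037 CPM of Lgals1 and 3743 CPM of S100a6, against 468, 301 and 297 CPM in the 431 such cells of brain sham. Their Col1a1 level was 7049.9 CPM, near that of the fibroblast class of the same library (6908 CPM), their Acta2 level 1172 CPM and their Dcn level 883 CPM, against 2914 CPM in those fibroblasts. Rgs5, the leading pericyte marker, stood at 27.6 CPM in them and 7717 CPM in the pericyte class. The fibroblast markers of the gate summed to 2689.8 CPM in them and the smooth muscle markers to 1904 CPM. No list passed all limits of the gate in these cells, so they enter no comparison above.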
